A study of Mus musculus with 17 samples.

Results

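The tubular injury markers described here are 10 genes, Havcr1, Lcn2, Krt7, Krt8, Krt18, Krt19, Sox9, Vcam1, Clu and Spp1, taken from a list of symbols and matched to Ensembl identifiers without their version. They are 10 of the 53313 gene identifiers that all 17 count tables share, and each of the 10 carried the same identifier version in every table. The study compared primary tubular epithelial cells (PTEC), grown out of collagenase-digested wild type kidneys of C57BL/6JRj mice, with and without senescence, and whole kidneys of male wild type mice of the same strain at 3 ages. Non-senescent (ns) PTEC were 4 cultures at day 6 that received no irradiation. Senescent (sen) PTEC were 4 cultures at day 16 whose confluent cells had been exposed to γ-irradiation with 10 Gray, so irradiation and time in culture changed together. One part of the right kidney of 3 mice each at 3, 12 and 24 months was used for RNA. The sources do not say whether the cultures came from separate mice, so p-values for PTEC measure the spread between these cultures, which may be technical.

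Injured tubular cells lose transport functions and switch on a set of genes that is low in the healthy nephron. The set includes surface and secreted proteins such as kidney injury molecule 1 (Havcr1), neutrophil gelatinase-associated lipocalin (Lcn2), clusterin (Clu) and osteopontin (Spp1), the adhesion molecule Vcam1, the transcription factor Sox9, which is switched on in tubular cells that repair, and the simple epithelial keratins. Keratins form filaments from one type II protein (Krt7, Krt8) and one type I protein (Krt18, Krt19), are made in the collecting duct and the urothelium of the healthy kidney, and appear in proximal tubules after injury.

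The members lie on 6 chromosomes of GRCm38, with positions from GENCODE release M21, and all are protein coding. Among the surface and secreted members, Havcr1 lies at chr11:46735080-46779578 on the plus strand, Lcn2 at chr2:32384633-32388252 on the minus strand, Clu at chr14:65968483-65981547 and Spp1 at chr5:104435118-104441050 on the plus strand, and Vcam1 at chr3:116109949-116129688 on the minus strand. Sox9 lies at chr11:112782224-112787760 on the plus strand. Krt7 (chr15:101411043-101430313, plus), Krt8 (chr15:101996698-102004482, minus) and Krt18 (chr15:102028180-102032027, plus) share a chromosome, on which Krt8 and Krt18 lie close together, while Krt19 (chr11:100140810-100148665, minus) is on another chromosome. The starts of Krt8 and Krt18, which encode filament partners, are 23698 bases apart by the GENCODE starts and face away from each other.

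The exon-free parts of the RefSeq promoter windows of Krt8 and Krt18, upstream of their GENCODE starts, are shown because the count ratio of this pair lay between 1.96 and 2.32 in the 8 cultures and between 2.35 and 16.5 in the 9 kidneys, and the stretch before Spp1 because Spp1 was the most abundant member per base. They are RefSeq sequences of GRCm38.p6 on the strand of the gene, 5′ to 3′, at chr15:102004483-102004592 for Krt8 (minus strand), chr15:102027966-102028179 for Krt18 (plus strand) and chr5:104434861-104435110 for Spp1 (plus strand), and capitals mark a TATAAA motif.
Krt8: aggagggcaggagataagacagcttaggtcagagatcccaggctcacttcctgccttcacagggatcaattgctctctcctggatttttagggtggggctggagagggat
Krt18: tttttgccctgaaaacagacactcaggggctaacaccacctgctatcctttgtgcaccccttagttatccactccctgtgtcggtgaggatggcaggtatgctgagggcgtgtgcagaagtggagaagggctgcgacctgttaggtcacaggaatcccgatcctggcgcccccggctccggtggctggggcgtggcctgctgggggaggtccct
Spp1: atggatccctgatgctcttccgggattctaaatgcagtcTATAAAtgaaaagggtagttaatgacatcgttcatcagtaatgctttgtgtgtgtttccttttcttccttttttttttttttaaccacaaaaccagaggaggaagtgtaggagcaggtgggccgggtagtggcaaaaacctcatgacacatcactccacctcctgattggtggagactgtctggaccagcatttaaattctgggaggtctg

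RefSeq promoter windows, 250 bases before to 50 bases after a start, were given for 6 members (Lcn2, Spp1, Havcr1, Krt7, Krt8 and Krt18), in 9 windows. They were searched on both strands for an NF-kB motif and for TGANTCA (AP-1), GGAATG (TEAD) and TATAAA, motifs whose letters do not contain one another. Of the 9 windows, 3 held a match: TATAAA at position -211 of a Spp1 window, TATAAA at position -1 of the Krt8 window and TGAATCA at position 10 of a Havcr1 window. The RefSeq starts of Krt8 and Krt18 lie 140 and 36 bases inside the genes as GENCODE gives them, so position -1 of the Krt8 window is not at the GENCODE start. The RefSeq start of the Havcr1 window with the match lies 16088 bases inside that gene. Among all 32851 promoter windows of the same length, 1.63% held the NF-kB motif, 7.81% the AP-1 letters, 14.7% the TEAD letters and 13.6% TATAAA. A match is a description of letters, not of a site in use.

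Between 26963442 and 35409144 reads per library were counted on genes in PTEC, between 37311247 and 49471409 in 3-month-old kidneys and between 54097073 and 66894790 in the older kidneys. The authors counted reads on 3 gene sets, one for PTEC, one for the youngest and one for the older kidneys, so age and gene set cannot be told apart in any comparison with 3 months, while the kidneys of 12 and 24 months share a set. Proximal tubule markers were low in the cultures: 16 genes summed to between 181 and 892 CPM in PTEC and to between 48732 and 64842 CPM in kidneys. The phosphate transporter Slc34a1 was between 0.197 and 22.4 CPM in ns PTEC and at most 0.0670 CPM in sen PTEC, while Lrp2 (megalin) remained at 65.5 CPM or more in every culture. In whole tissue, fewer cells of a type and less RNA per cell cannot be told apart. Counts of 4 members can share reads with an overlapping gene, Krt7 with Gm671, Krt8 with Gm36026 and Vcam1 with Gm43109 on the opposite strand, and Spp1 with Gm42793 on the same strand. In kidneys none of these 4 partners exceeded 0.832 CPM, and in PTEC Gm42793 had means of 9.08 CPM (ns) and 7.45 CPM (sen). Krt8 can also share reads with its pseudogene Krt8-ps, which was at most 6.28 CPM in PTEC.

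Cultured tubular cells held much more of the injury marker RNA than the kidney did. The 10 genes took 1.43% to 2.15% of all counts in ns PTEC and 1.54% to 2.33% in sen PTEC, against 0.121% to 0.201%, 0.0892% to 0.117% and 0.157% to 0.181% at 3, 12 and 24 months. Much of this was Spp1, which alone took 0.859% to 1.57% in ns PTEC, 1.215% to 1.89% in sen PTEC and 0.0492% to 0.122% in kidneys. On one scale over all 17 libraries and per kilobase of exon, Spp1, a secreted matrix protein, was the most abundant member in every group, with 5536 CPM per kilobase in ns PTEC and 704 in 3-month-old kidneys. Havcr1 was next in ns PTEC, with 671 CPM per kilobase, but stood at 7.01 in 3-month-old kidneys, where Clu (132) and Krt8 (93.5) followed Spp1. The plot of levels by library shows all 10 genes, of which Clu, Krt7 and Krt19 overlapped between some cultures and some kidneys.

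**Figure D1:**
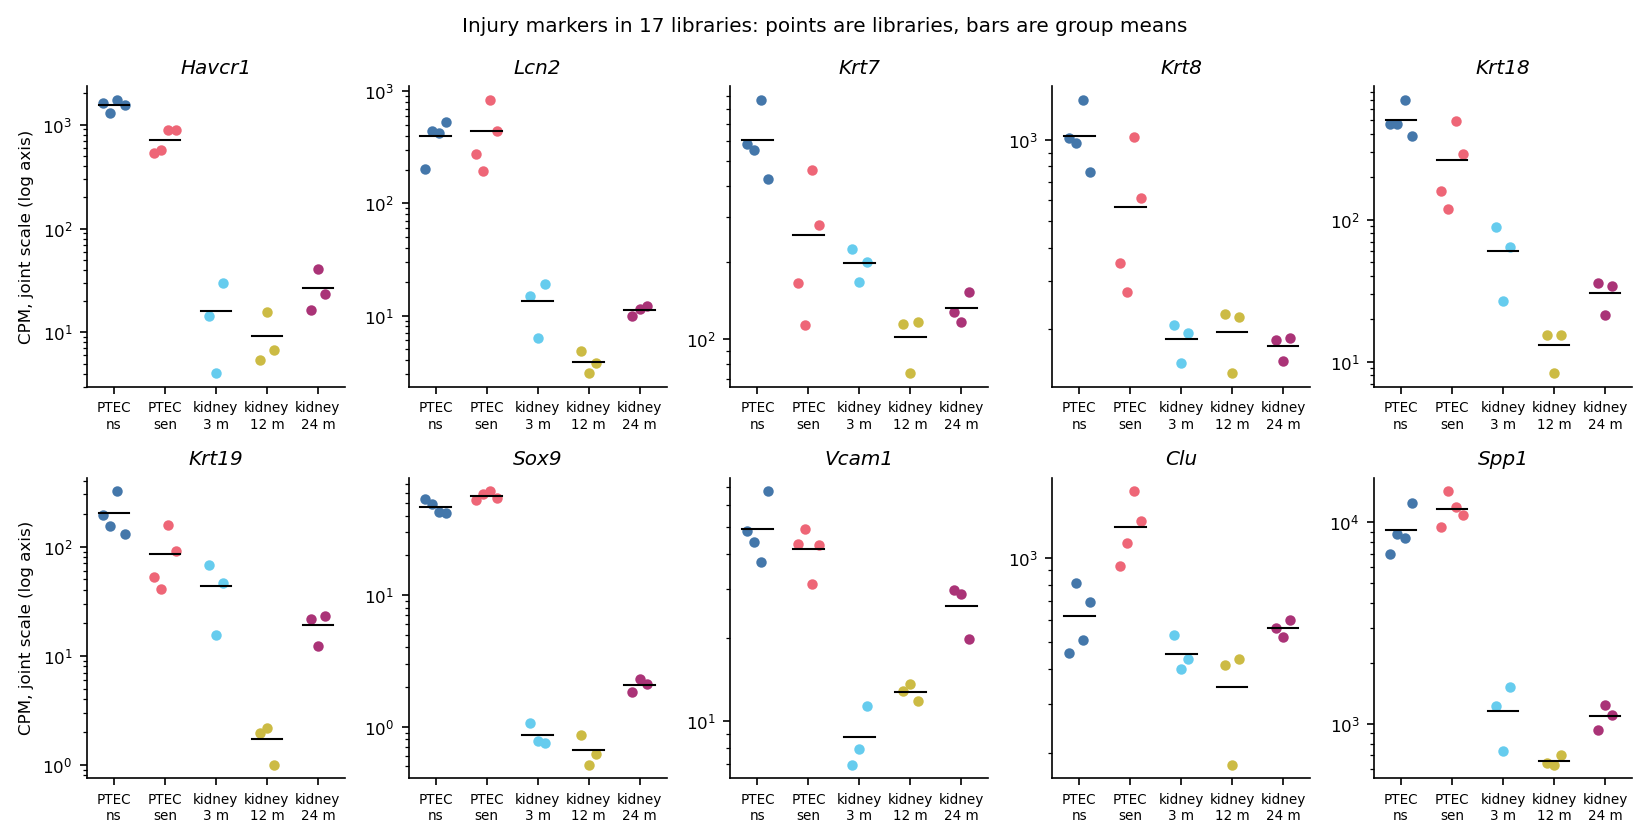
CPM of each injury marker on one scale over all libraries (log axis) in 4 ns PTEC, 4 sen PTEC and 3 kidneys each at 3, 12 and 24 months, where points are libraries and bars are group means. All cultures lie above all kidneys for Havcr1, Lcn2, Krt8, Krt18, Sox9, Vcam1 and Spp1, while for Clu the ns PTEC and the kidneys overlap.

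Of the 10 markers, 9 were higher in ns PTEC than in 3-month-old kidneys by edgeR's quasi-likelihood test with Benjamini-Hochberg adjustment (called where the adjusted p was under 0.05 and the log2 difference was beyond 0.5 in either direction). Culture and tissue differed in most of the transcriptome, and 32.0% of the 17999 genes tested were called higher by the same rule. Havcr1, a surface receptor for dying cells, was at 1551 ± 196 CPM (SD, n = 4) in ns PTEC and at 16.2 ± 13.1 CPM (SD, n = 3) in 3-month-old kidneys on the joint scale, with a log2 difference of 6.58 (SE 0.657, adjusted p = 1.4e-07). Sox9 was at 46.9 ± 5.40 CPM (SD, n = 4) in ns PTEC and at 0.866 ± 0.173 CPM (SD, n = 3) in the kidneys, a log2 difference of 5.76 (SE 0.220, adjusted p = 1.46e-12).

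Lcn2, a secreted iron carrier, followed with a log2 difference of 4.90 (SE 0.535). Among the keratins the log2 differences were 3.09 for Krt18, 2.51 for Krt8, 2.22 for Krt19 and 1.62 for Krt7. Spp1 differed by 2.98 and Vcam1 by 2.50 on the log2 scale. Clu, a secreted chaperone, was the exception, at 618 ± 165 CPM (SD, n = 4) in ns PTEC and 454 ± 65.8 CPM (SD, n = 3) in kidneys, with a log2 difference of 0.45 (SE 0.288, adjusted p = 0.176). The groups did not overlap for 9 markers, as for 62.5% of all genes tested. No marker was called lower by edgeR, where 35.5% of all genes were, with 0 at an unadjusted p under 0.05 and 0 by DESeq2. The 9 calls were also made with each library left out in turn.

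Other genes of the injury response moved with them. Of 31 tested genes on a list of 32 other tubular injury genes, 26 were higher and 4 lower in ns PTEC than in 3-month-old kidneys, with a median log2 difference of 3.11, against -0.05 over all genes tested. Akap12, a scaffold protein, was higher by 7.16 and Cd44, a receptor for hyaluronan and osteopontin, by 6.99, whereas the fibrinogen genes Fgg (-4.32) and Fga (-3.65) were lower. The fibrinogen gene Fgb went the other way, with means of 17.05 CPM in ns PTEC and 0.786 CPM in 3-month-old kidneys, each on its own scale. Among 14 tested other keratins and vimentin, 7 were higher and 5 lower, with Krt20 at 6.91 and Krt15 at -7.70. Of 14 receptors and ligands of the secreted and surface members, 7 were higher and 5 lower, and Lrp2, an uptake receptor of lipocalin 2, was lower by 3.64 (log2 difference -3.64). Of 11 tested genes of the NF-kB and acute phase response, 9 were higher than in the kidneys, including the complement gene C3 (3.91). Markers of nephron segments were lower together, in 16 of 16 proximal tubule, 7 of 8 loop of Henle and 14 of 14 distal tubule and collecting duct genes.

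Injury markers were called in both directions in senescent cultures, in total about as often as all genes tested. Clu rose, Havcr1, Krt7 and Krt19 fell, and the other 6 did not pass the test, while 20.1% of the 15434 genes tested were called higher and 19.7% lower. Among the surface and secreted members, Havcr1 was at 2029, 1617, 2192 and 1965 CPM in ns PTEC and at 674, 726, 1131 and 1137 CPM in sen PTEC (replicates 1 to 4). Every senescent culture lay below every non-senescent one, and the log2 fold change was -1.09 (SE 0.214, adjusted p = 0.0029). Clu was at 569, 1026, 641 and 880 CPM in ns PTEC and at 1183, 1445, 2183 and 1739 CPM in sen PTEC. The groups did not overlap, with a log2 fold change of 1.07 (SE 0.248, adjusted p = 0.00666). Both calls were made under every alternative setting and with each culture left out, where the log2 fold change lay between -1.21 and -0.96 for Havcr1 and between 0.92 and 1.23 for Clu.

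The other surface and secreted members overlapped between the groups. Lcn2 was at 253, 561, 531 and 673 CPM in ns PTEC and at 352, 248, 1061 and 567 CPM in sen PTEC, with the highest value in sen replicate 3 and a log2 fold change of 0.14 (SE 0.439, adjusted p = 0.814). Spp1 was at 8668, 11010, 10478 and 15795 CPM in ns PTEC and at 12067, 18363, 15124 and 14075 CPM in sen PTEC. Its log2 fold change was 0.38 (SE 0.230, adjusted p = 0.212), and without ns replicate 4, the highest of that group, it was 0.56 with an adjusted p of 0.0441. Vcam1, which binds leukocyte integrins, was at 60.3, 56.0, 47.2 and 85.4 CPM in ns PTEC and at 55.5, 63.6, 39.4 and 55.7 CPM in sen PTEC (log2 fold change -0.22, SE 0.207, adjusted p = 0.424). Sox9 was at 66.8, 61.7, 54.1 and 53.5 CPM in ns PTEC and at 67.0, 75.3, 77.7 and 70.9 CPM in sen PTEC. The lowest senescent culture lay just above the highest non-senescent one, and the log2 fold change of 0.30 (SE 0.120) had an adjusted p of 0.0675. Havcr1, Sox9 and Clu are the 3 members whose groups did not overlap, as was the case for 42.0% of all genes tested.

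All 4 keratins had negative log2 fold changes in senescent cultures. Krt7 was at 723, 694, 1096 and 539 CPM in ns PTEC and at 212, 146, 585 and 362 CPM in sen PTEC. Its log2 fold change was -1.23 (SE 0.402, adjusted p = 0.0323), although sen replicate 3 was above ns replicate 4. Krt19 was at 243, 196, 405 and 166 CPM in ns PTEC and at 67.6, 52.1, 199 and 118 CPM in sen PTEC, with a log2 fold change of -1.21 (SE 0.426, adjusted p = 0.0425). Krt8 was at 1266, 1230, 1781 and 961 CPM in ns PTEC and at 447, 352, 1295 and 790 CPM in sen PTEC (log2 fold change -0.86, SE 0.383, adjusted p = 0.0956). Krt18 was at 585, 594, 883 and 490 CPM in ns PTEC and at 201, 152, 623 and 376 CPM in sen PTEC (log2 fold change -0.92, SE 0.404, adjusted p = 0.0928). Replicate 3 was the highest culture of its group for each of the 4 keratins, in both groups.

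Cultures with the same replicate number deviated together, and a fit with the replicate number as a block called all 4 keratins lower. In it the log2 fold changes were -1.37 for Krt7, -1.01 for Krt8 (adjusted p = 0.014), -1.10 for Krt18 (adjusted p = 0.0113) and -1.32 for Krt19, so that 5 members were lower, where 21.3% of all genes were. Without ns replicate 1 or 3, or without sen replicate 1, 2 or 4, the call was lost for Krt7 and Krt19 and only Havcr1 was lower, and without sen replicate 3 all 4 keratins were, with log2 fold changes between -1.67 and -1.30. The plot of fold changes sets the 4 comparisons side by side.

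**Figure D2:**
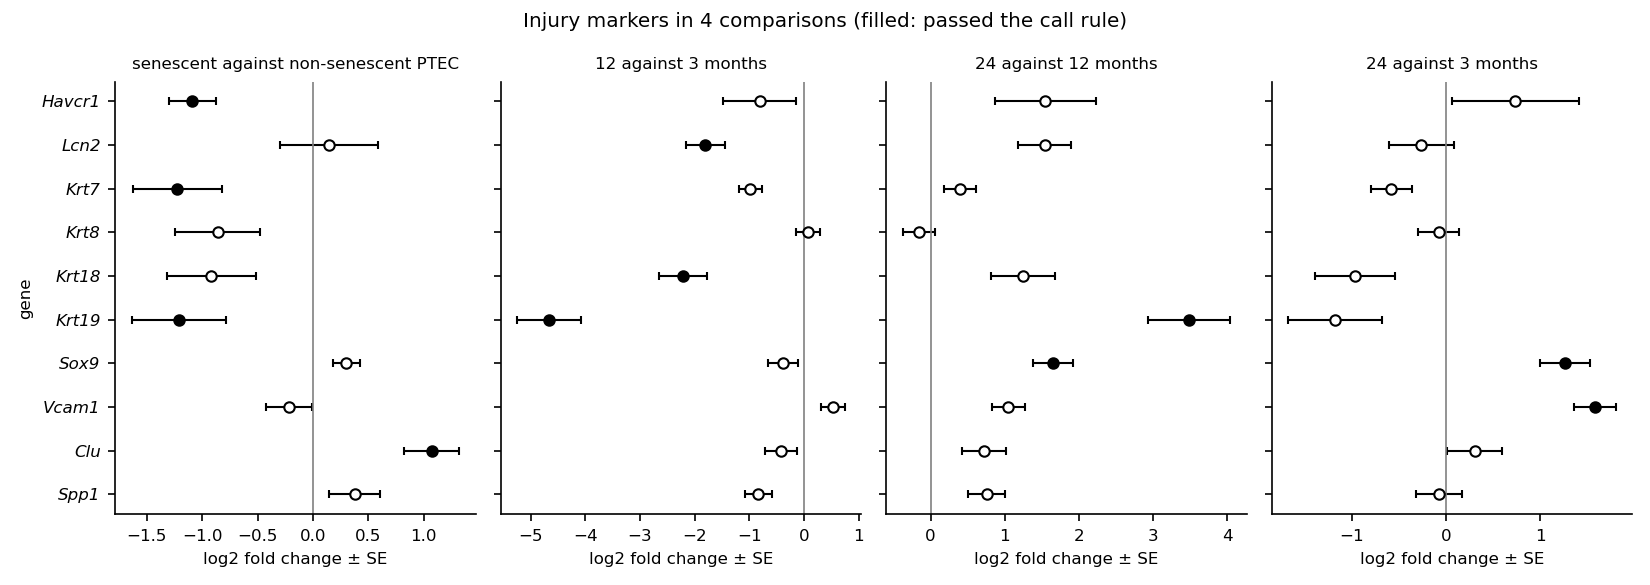
Log2 fold change of each injury marker with its SE in sen against ns PTEC (4 against 4) and between kidneys of 3, 12 and 24 months (3 against 3), where filled points passed the call rule. Keratins have negative values in PTEC, Krt19 has the lowest value at 12 against 3 months (-4.66), and Sox9 and Vcam1 are the filled points at 24 against 3 months.

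Keratins were also compared as 4 ratios of counts within a library, which no scaling changes and which were chosen after the values were seen. The counts of Krt8 were 2.05 ± 0.0865 (SD, n = 4) times those of Krt18 in ns PTEC and 2.18 ± 0.112 (SD, n = 4) times in sen PTEC (exact two-sided permutation p = 0.143). It was higher in the senescent culture in 4 of 4 pairs of the same replicate number, with a log2 difference of 0.09 and an exact paired permutation p of 0.125, the smallest that 4 pairs allow. The ratio of Krt7 to Krt19 was 3.12 ± 0.362 (SD, n = 4) and 2.99 ± 0.146 (SD, n = 4), with an exact permutation p of 0.543, and it was higher in 2 of 4 pairs and lower in 2 (exact paired permutation p = 0.75). For Krt18 to Krt19 the ratio was 2.64 ± 0.417 (SD, n = 4) in ns PTEC and 3.055 ± 0.131 (SD, n = 4) in sen PTEC. Its exact permutation p was 0.143, and it was higher in 3 of 4 pairs (exact paired permutation p = 0.25). Krt7 fell against Krt8, from a ratio of 0.578 ± 0.0252 (SD, n = 4) to 0.450 ± 0.0246 (SD, n = 4), a log2 difference of -0.36 with an exact permutation p of 0.0286, the smallest that 4 against 4 cultures allow, and the ratio was lower in 4 of 4 pairs (exact paired permutation p = 0.125).

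Other injury genes were split in senescent cultures. Of 30 tested, 11 were higher and 8 lower, with a median log2 fold change of 0.10 against -0.0020 over all genes tested, of which 20.1% were called higher and 19.7% lower. The copper carrier ceruloplasmin (Cp) rose by 2.24 and the cytokine Il18 by 2.0, whereas the galectin Lgals3 (-1.72) and the chemokine Cxcl1 (-1.71) fell. Of 12 other keratins and vimentin tested, 1 rose and 4 fell, among them Krt80 (-1.22). Of 13 receptors and ligands, 3 rose, including the integrin chain Itgb1 (1.13), and 3 fell, including the reelin and clusterin receptor Lrp8 (-1.43). For the receptors and ligands, these shares were close to those over all genes tested. Of 10 NF-kB and acute phase genes, 3 fell (Socs3 by -1.12, Birc3 by -0.68 and Nfkb2 by -0.64).

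Markers of other cells also differed between the cultures. Of 9 tested fibroblast and pericyte genes, 7 were higher in sen PTEC. The list of 10 summed to between 1032 and 2219 CPM there, against 205 to 342 CPM in ns PTEC. Acta2 and Tagln made up much of this sum. Their means were 695 and 738 CPM in sen PTEC and 60.5 and 132.5 CPM in ns PTEC. In sen PTEC, Pdgfra averaged 2.13 CPM and was not called, and Dcn, which was called higher, averaged 0.765 CPM. The lowest senescent sum was in replicate 3, the senescent culture with the most keratin RNA. Urothelium genes summed to 22.9 to 52.4 CPM in sen PTEC and 42.9 to 100 CPM in ns PTEC, with Upk3a at 0 in every ns culture. T, NK and B cell genes summed to at most 0.737 CPM in any culture, with Cd3d and Cd3g at 0 in every one. Macrophage genes summed to between 69.9 and 264 CPM over the 8 cultures, with 1 of 10 tested lower, and endothelium genes to between 87.0 and 322 CPM, with 1 of 10 lower. Several genes of the tubule itself were lower in sen PTEC: 6 of 9 tested proximal tubule genes fell, with a list median log2 fold change of -2.41 against -0.0020 over all genes tested, among them the transcription factor Hnf4a (-2.98) and Kap (-3.19). Lrp2 did not pass (log2 fold change 0.17, adjusted p = 0.853). The proximal tubule sums overlapped, at 181 to 363 CPM in sen PTEC and 269 to 892 CPM in ns PTEC. Of the tested loop of Henle genes 5 of 7 fell, and of the distal tubule and collecting duct genes 4 of 6. Of 7 tested parietal epithelium and podocyte genes, 4 rose, among them Synpo (2.11), which encodes the podocyte protein synaptopodin. Of 12 tested immediate early and heat shock genes, 4 rose, among them Fos (1.61) and Dusp1 (1.41). The part of these cells and genes in the keratin and Clu values was not tested.

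In kidneys, 8 of the 10 markers had a negative log2 fold change at 12 against 3 months, as did 49.5% of all genes tested, and 9 a positive one at 24 against 12 months, as did 49.9% of all genes. Both comparisons use the same 12-month-old kidneys, so a low value in those kidneys alone gives both signs, and the signs are not 2 separate observations. At 12 against 3 months, Lcn2, Krt18 and Krt19 fell and no marker rose, where 1.36% of the 17067 genes tested were called lower. Krt19, a type I keratin of ducts and urothelium, was at 54.5, 12.6 and 37.8 CPM in the 3-month-old kidneys, at 1.56, 1.74 and 0.810 CPM at 12 months and at 17.8, 9.79 and 18.7 CPM at 24 months. Every 12-month-old kidney was below all other kidneys, and the log2 fold change from 3 to 12 months was -4.66 (SE 0.581, adjusted p = 0.00795). The counts behind it were 42 to 106 reads at 12 months and 615 to 2077 reads at 3 months. This call was made with each kidney left out, with log2 fold changes between -5.06 and -4.19, and under all other settings.

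Krt18 was at 71.9, 21.7 and 51.9 CPM at 3 months, 12.3, 6.63 and 12.5 CPM at 12 months and 29.3, 17.2 and 28.0 CPM at 24 months. The 12-month-old kidneys did not overlap with either of the other ages, and the log2 fold change from 3 to 12 months was -2.21 (SE 0.442, adjusted p = 0.0396). Lcn2 was at 12.2, 5.18 and 15.3 CPM at 3 months, 3.87, 2.45 and 3.03 CPM at 12 months and 8.12, 9.27 and 9.85 CPM at 24 months. It was lowest at 12 months with no overlap, and fell by 1.80 on the log2 scale (SE 0.361, adjusted p = 0.0396). Krt7, at 184, 137 and 161 CPM at 3 months, 91.8, 58.8 and 93.9 CPM at 12 months and 104, 93.8 and 125 CPM at 24 months, had a log2 fold change of -0.98 with an adjusted p of 0.0505 from 3 to 12 months. In all, 6 of the 10 markers had no overlap between 3 and 12 months, as had 20.3% of all genes tested.

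The calls of Krt18 and Lcn2 depended on the kidneys used. With any of 3-month replicates 1 and 3 or 12-month replicates 1, 2 and 3 left out, only Krt19 was called, and the adjusted p rose to as much as 0.155 for Lcn2 and 0.151 for Krt18. Without 3-month replicate 2, which had the lowest Lcn2 and Krt18 of its age, 5 markers were lower, with log2 fold changes of -2.56 for Krt18, -2.14 for Lcn2, -1.08 for Krt7, -5.06 for Krt19 and -1.07 for Spp1. No marker rose by edgeR from 3 to 12 months, as 1.22% of all genes did, while 1 (Vcam1, log2 fold change 0.52) had an unadjusted p under 0.05 and DESeq2 called 0.

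From 12 to 24 months, on the same gene set, Krt19 and Sox9 rose, where 0.896% of all genes tested were called higher. The log2 fold change of Krt19 was 3.49 (SE 0.555, adjusted p = 0.0262). Sox9 was at 0.866, 0.635 and 0.607 CPM at 3 months, 0.694, 0.411 and 0.502 CPM at 12 months and 1.5, 1.85 and 1.71 CPM at 24 months, from 98 to 122 reads per kidney at 24 months and 25 to 40 reads in the younger ones. All 3 of the oldest kidneys were above all younger ones, and the log2 fold change from 12 to 24 months was 1.65 (SE 0.270, adjusted p = 0.0287). The log2 fold changes of Lcn2 (1.54, adjusted p = 0.0796), Vcam1 (1.05, adjusted p = 0.0563) and Krt18 (1.25, adjusted p = 0.214) were positive without passing the test, and 8 markers had no overlap between these ages, against 25.6% of all genes tested.

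These 2 calls needed every kidney of both ages. Krt19 and Sox9 lost theirs with any 1 kidney of either age left out (adjusted p from 0.0571 to 0.124 and from 0.0804 to 0.134), and with a replicate block over all 9 kidneys none was called. The kidneys of 12 and 24 months with the same replicate number deviated together, and a fit of these 2 ages alone with the block, added after that check, called 8 markers higher, where 7.77% of the 16686 genes tested were. They were Havcr1 (1.61), Lcn2 (1.56), Krt18 (1.26), Krt19 (3.45), Sox9 (1.67), Vcam1 (1.03), Clu (0.81) and Spp1 (0.75), with adjusted p from 0.00026 to 0.0462. The sample labels name no batch, and kidneys with different numbers were not compared in this way, so the pairing behind these calls was not tested. Replicate 2 stood apart at both ages. Its chi-square per gene against the other kidneys of its age was 229 and 233.5 at 12 months and 118 and 115 at 24 months. Between replicates 1 and 3 it was 15.7 at 12 months and 39.8 at 24 months. No marker was called lower by edgeR at 24 against 12 months, as 0.434% of all genes were, with 0 at an unadjusted p under 0.05 and 0 by DESeq2.

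Between 3 and 24 months, Vcam1 and Sox9 rose, and 1.89% of all genes tested were called higher. Vcam1 was at 5.67, 6.47 and 9.18 CPM at 3 months, 10.3, 10.9 and 9.53 CPM at 12 months and 24.3, 23.2 and 16.1 CPM at 24 months. The ages did not overlap, and 3 markers (Krt7, Sox9 and Vcam1) had no overlap between 3 and 24 months, as had 22.0% of all genes tested. The log2 fold change of Vcam1 from 3 to 24 months was 1.58 (SE 0.222, adjusted p = 0.0113). It was called with each kidney left out except 3-month replicate 1, without which the adjusted p was 0.0683. Sox9 rose by 1.26 on the log2 scale (SE 0.268, adjusted p = 0.0472), a call that was lost with any 1 kidney of the 2 ages left out (adjusted p from 0.0679 to 0.158).

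No marker fell between 3 and 24 months by edgeR, as 0.451% of all genes did, while 3 (Krt7, Krt18 and Krt19) had an unadjusted p under 0.05 and DESeq2 called 0. The log2 fold changes of these 3 were -0.58, -0.97 and -1.18, and without 3-month replicate 2 the value of Krt19 was -1.57 with an adjusted p of 0.048. With a replicate block over the 9 kidneys the adjusted p of Vcam1 was 0.0598 and that of Sox9 0.118, and no marker was called between 3 and 24 months.

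The remaining 4 markers passed no main test between ages. Havcr1 varied most within an age, at 11.8, 3.3 and 24.3 CPM at 3 months, 4.30, 12.7 and 5.42 CPM at 12 months and 13.3, 32.9 and 19.3 CPM at 24 months. The 3-month-old kidneys overlapped with both other ages while 12 and 24 months did not overlap, and the SE of its log2 fold changes lay between 0.668 and 0.681. Krt8 was at 169, 122 and 155 CPM at 3 months, 181, 110 and 179 CPM at 12 months and 149, 122 and 151 CPM at 24 months, with log2 fold changes between -0.15 and 0.08. Spp1 was between 595 and 1227 CPM at 3 months, between 503 and 569 CPM at 12 months and between 762 and 999 CPM at 24 months. Clu was between 327 and 429 CPM, between 146 and 351 CPM and between 420 and 487 CPM at the 3 ages, with the lowest value in 12-month replicate 2.

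The counts of the keratin partners came apart in the kidney. The ratio of Krt8 to Krt18 counts was 2.35, 5.61 and 2.99 at 3 months, 14.7, 16.5 and 14.3 at 12 months and 5.07, 7.10 and 5.39 at 24 months. All 12-month-old kidneys lay above all others, with an exact two-sided permutation p of 0.1 against either age, the smallest that 3 against 3 mice allow. The ratio of Krt7 to Krt19 was 3.37, 10.9 and 4.28 at 3 months, 58.8, 33.7 and 116 at 12 months and 5.83, 9.59 and 6.67 at 24 months, again with the 12-month-old kidneys apart (exact permutation p = 0.1). Krt18 to Krt19, both type I, had ratios of 1.318, 1.725 and 1.375 at 3 months, 7.878, 3.802 and 15.4 at 12 months and 1.645, 1.756 and 1.494 at 24 months. The exact permutation p of 12 months was 0.1 against either age. The ratio of Krt7 to Krt8, both type II, was 1.09, 1.12 and 1.04 at 3 months, 0.506, 0.537 and 0.525 at 12 months and 0.699, 0.769 and 0.828 at 24 months, so that no 2 ages overlapped (exact permutation p = 0.1 for each pair of ages).

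**Figure D3:**
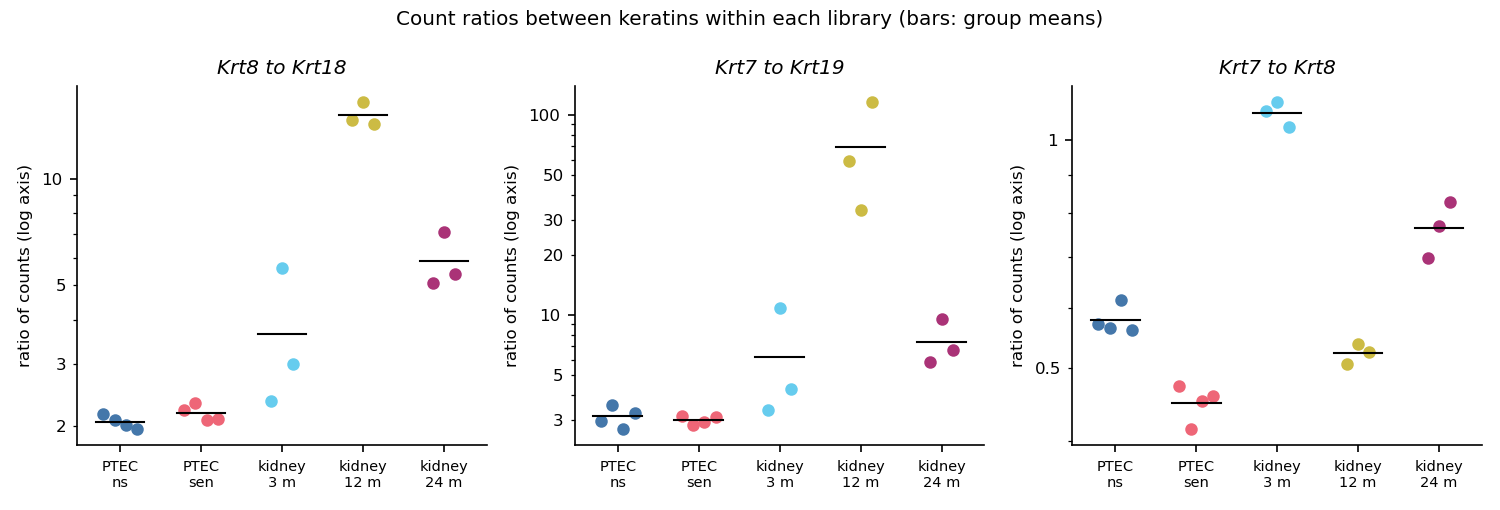
Ratio of counts between keratins within each library (log axis) in 4 ns PTEC, 4 sen PTEC and 3 kidneys per age, where points are libraries and bars are group means. Krt8 to Krt18 stays near 2.05 in ns PTEC and 2.18 in sen PTEC and reaches 14.3 to 16.5 in the 12-month-old kidneys.

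Urothelial genes moved with these keratins. The urothelium lines the renal pelvis, and the sampled part of a kidney can hold more or less of it. Of 11 urothelium genes, 10 were lower at 12 than at 3 months and 3 were higher at 24 than at 12 months, with median log2 fold changes of -5.13 and 3.23. They included the basal keratins Krt5 (-5.94 and 5.35) and Krt15 (-5.18 and 4.90) and the transcription factor Foxa1 (-5.63 and 4.22). The list summed to between 53.8 and 264 CPM at 3 months, between 13.5 and 14.9 CPM at 12 months and between 44.1 and 92.2 CPM at 24 months. The lowest 3-month value was in replicate 2, also the lowest of its age for Krt18 and Krt19. No urothelium gene was at 0 in all kidneys of an age, and the defining uroplakin Upk3a was between 0.309 and 1.14 CPM at 12 months and between 5.49 and 34.6 CPM at 3 months.

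Of 14 distal tubule and collecting duct genes, 2 were lower at 12 than at 3 months, and the list summed to between 1622 and 1906 CPM at 3 months, between 951 and 1329 CPM at 12 months and between 1238 and 1627 CPM at 24 months. The part of urothelium and collecting duct in the keratin and Lcn2 values was not tested.

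**Figure D4:**
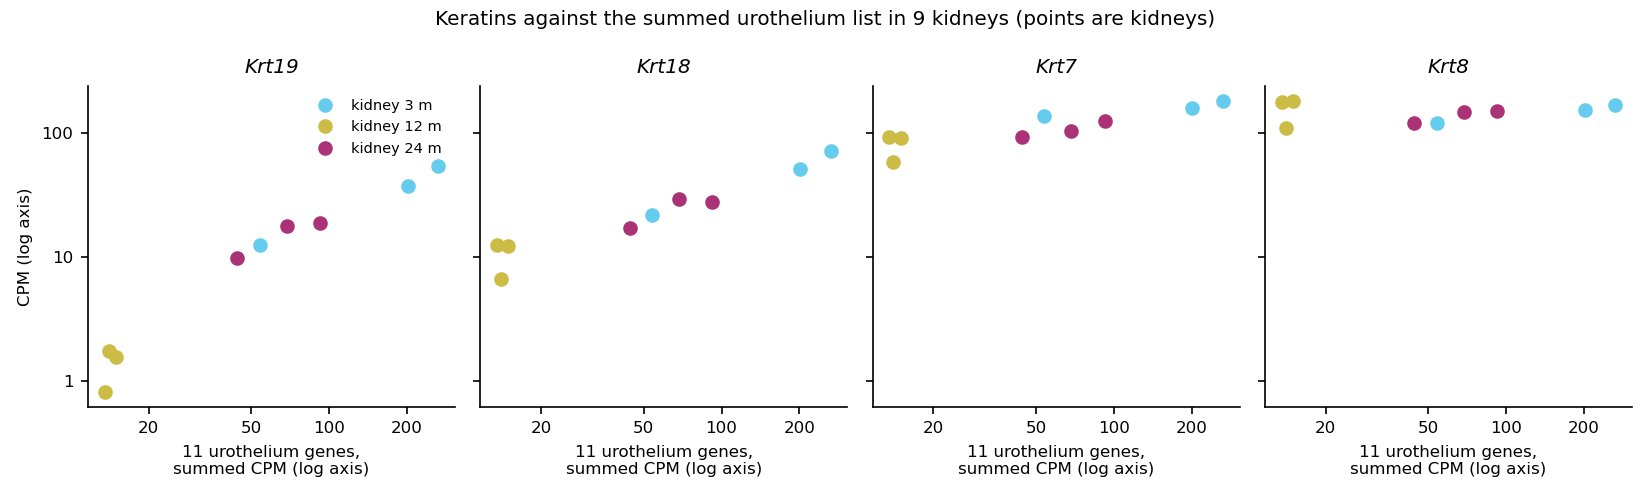
CPM of Krt19, Krt18, Krt7 and Krt8 against the summed CPM of 11 urothelium genes in 9 kidneys (both axes log), where points are kidneys coloured by age. The 12-month-old kidneys sit at 13.5 to 14.9 CPM of urothelium genes and have the lowest Krt19 and Krt18, while Krt8 lies between 110 and 181 CPM over the whole range.

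Over the 9 kidneys, the genes most like each marker in log2 CPM were searched among the 13319 genes whose mean reached 1 CPM, as a description. Those most like Krt19 were Upk2 (Pearson r = 0.994), a uroplakin, Capn13 (0.993) and Foxa1 (0.991), and within ages, after each age's mean was removed, r with Upk2 was 0.974. Those most like Krt18 were Ctse (0.983), Fam174b (0.983) and Sfn (0.981), and those most like Krt7 were Ryk (0.983), Tmem246 (0.982) and Cd82 (0.982). Krt8 had another set, Impdh2 (0.960), Ptma (0.946) and Babam1 (0.928). Lcn2 went with Elovl6 (0.976), Sfn (0.958) and Spp1 (0.957), and Spp1 with Lcn2, Lgals3 (0.956) and Phgdh (0.950). Havcr1 went with Serpina10 (0.968), Itih3 (0.962) and the chemokine Ccl2 (0.958).

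Vcam1 went with Homer3 (0.978), the leukocyte adapter Fyb (0.970) and Icam1 (0.969), another adhesion molecule, and within ages r with Fyb was 0.718. Clu went with F2rl1 (0.964), Tada3 (0.953) and Ccm2 (0.951), and without the 2 kidneys farthest from the median of Clu, r with Tada3 was 0.757. Sox9, with a mean under 1 CPM, was not searched. The 9 kidneys share the 3 ages and the gene sets, so these likenesses hold differences between ages as well as between mice.

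Among the 45 pairs of markers, 38 had a positive Pearson r of log2 CPM over the 9 kidneys and 10 pairs, all positive, had an adjusted p under 0.05 by exact permutation. The highest was Lcn2 with Spp1 (r = 0.957, exact permutation p = 0.00011, adjusted p = 0.00496, and Spearman's rho = 0.933, exact permutation p = 0.00075, adjusted p = 0.0197). Without the 2 kidneys farthest from the median of the first-named gene, the rule for all pairs, it was 0.980, and 0.937 with Spp1 named first. Within ages it was 0.893. Krt7 with Krt18 had r = 0.941 (exact permutation p = 0.00032, adjusted p = 0.00719, rho = 0.917 with p = 0.00131), with 0.841 without the 2 farthest kidneys and 0.831 within ages. Krt18 with Krt19 had r = 0.905 (exact permutation p = 0.000615, adjusted p = 0.00744, rho = 0.917 with p = 0.00131), with 0.908 without the 2 farthest kidneys and 0.672 within ages. Krt8 with Krt18, the filament partners, had r = 0.359 (exact permutation p = 0.341, adjusted p = 0.528, rho = 0.150 with p = 0.708) over all kidneys, -0.0799 without the 2 farthest kidneys and 0.884 within ages. The permutations exchange kidneys of different ages, so these p-values also hold differences between ages. Within ages, r over the 10 pairs lay between 0.269 and 0.893. It was 0.269 for Krt7 with Krt19, against 0.805 over all kidneys, and 0.486 for Krt19 with Spp1, against 0.835. By Spearman's rho, 5 pairs passed, and with each kidney left out the number of pairs passing by Pearson's r lay between 4 and 10.

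Leukocyte markers moved with age beside Vcam1 and Sox9. Of 12 T, NK and B cell genes, 2 rose from 3 to 12 months and 5 from 3 to 24 months by edgeR (6 and 7 by DESeq2), and the list summed to between 4.92 and 8.93 CPM at 3 months, between 14.9 and 98.7 CPM at 12 months and between 23.6 and 109 CPM at 24 months. Of 12 macrophage genes, 1 rose from 3 to 24 months by edgeR, whereas 8 were higher with an unadjusted p under 0.05 and 6 were called higher by DESeq2. The macrophage list summed to between 121 and 191 CPM, between 180 and 206 CPM and between 203 and 265 CPM at the 3 ages. By edgeR, 1.22% of all genes tested rose from 3 to 12 months and 1.89% from 3 to 24 months. By DESeq2, 531 of 30029 genes rose from 3 to 12 months and 727 from 3 to 24 months. At 24 against 3 months, 3106 of the 17067 genes tested by edgeR had an unadjusted p under 0.05, in either direction. Fibroblast and pericyte genes summed to between 190 and 229 CPM at 3 months, between 195 and 225 CPM at 12 months and between 243 and 312 CPM at 24 months, so that every 24-month kidney lay above every younger one. Of the 10 genes, 0 passed at 24 against 3 months by edgeR, with the lowest adjusted p, 0.105, at Col1a1, while 3 had an unadjusted p under 0.05 and 2 passed by DESeq2, all higher. Endothelium genes summed to between 325 and 412 CPM at 3 months, between 458 and 514 CPM at 12 months and between 288 and 508 CPM at 24 months, so that the 12-month-old kidneys lay above the 3-month-old ones. Neutrophil genes summed to between 1.33 and 12.6 CPM (median 2.07), between 2.22 and 4.26 CPM (2.82) and between 3.18 and 18.7 CPM (11.4) at the 3 ages, which overlapped. The part of these cells in the Vcam1, Sox9 and Lcn2 values was not tested.

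Other tubular injury genes were also lowest at 12 months in several cases. Of 31 tested, 4 fell from 3 to 12 months (median log2 fold change -0.73), 6 rose from 12 to 24 months (0.71) and 3 rose from 3 to 24 months (0.11), comparisons that share kidneys, where the medians of all genes tested lay within 0.0044 of 0. The cell cycle inhibitor Cdkn1a, at 12.2, 4.21 and 28.0 CPM on average at 3, 12 and 24 months, fell by 1.53 and rose by 2.73 on the log2 scale. The stress cytokine Gdf15, at 9.39, 3.69 and 22.9 CPM, fell by 1.35 and rose by 2.63, and the haem oxygenase Hmox1 fell by 1.20 and rose by 1.0. Cp rose by 1.35 from 3 to 24 months.

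Of 10 NF-kB and acute phase genes tested in kidneys, 2 rose from 3 to 24 months (4 by DESeq2), C3 (1.86) and Icam1 (0.82), and C3 also rose from 12 to 24 months (1.78). Of 14 receptors and ligands tested, 13 had a positive log2 fold change from 3 to 24 months (median 0.65), with the lowest adjusted p, 0.0625, at Itga5. By edgeR 0 of them passed, while 7 were higher with an unadjusted p under 0.05 and 4 were called higher by DESeq2. For the 4 chains of Vcam1-binding integrins on the list, log2 fold changes from 3 to 24 months were 1.01 for Itga4 (edgeR adjusted p = 0.123), 1.31 for its partner Itgb7 (0.0828), 0.78 for Itga9 (0.158) and -0.09 for Itgb1 (0.722), which pairs with either alpha chain. Among 11 other keratins and vimentin, 5 fell from 3 to 12 months, including Krt5, Krt14 (-5.87), Krt15 and Krt23 (-3.40), and 3 rose from 12 to 24 months.

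Immediate early and heat shock genes, which respond within the time of tissue handling, also differed between kidneys. Of 12, 4 fell from 3 to 12 months, among them Hspa1b (-3.70), 2 rose from 12 to 24 months and 2 from 3 to 24 months, including Fos (5.40). The list summed to between 357 and 602 CPM at 3 months, between 185 and 253 CPM at 12 months and between 369 and 1476 CPM at 24 months, so that it too was lowest at 12 months. Proximal tubule genes summed to between 54201 and 56064 CPM, between 57602 and 64842 CPM and between 48732 and 53626 CPM at the 3 ages, with 4 of 16 higher at 24 than at 3 months and 13 of 16 fold changes positive. Kap, an androgen-regulated transcript, made up much of that sum, at 31170 to 39215 CPM at 3 months, 34990 to 39491 CPM at 12 months and 21792 to 27048 CPM at 24 months, and the sum without Kap lay between 14987 and 24700 CPM, between 18111 and 29826 CPM and between 22932 and 27226 CPM. Loop of Henle genes had 1 of 8 lower at 12 than at 3 months, and the parietal epithelium and podocyte genes summed to between 150 and 407 CPM over all kidneys. The part of these differences in the marker values was not tested.

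**Figure D5:**
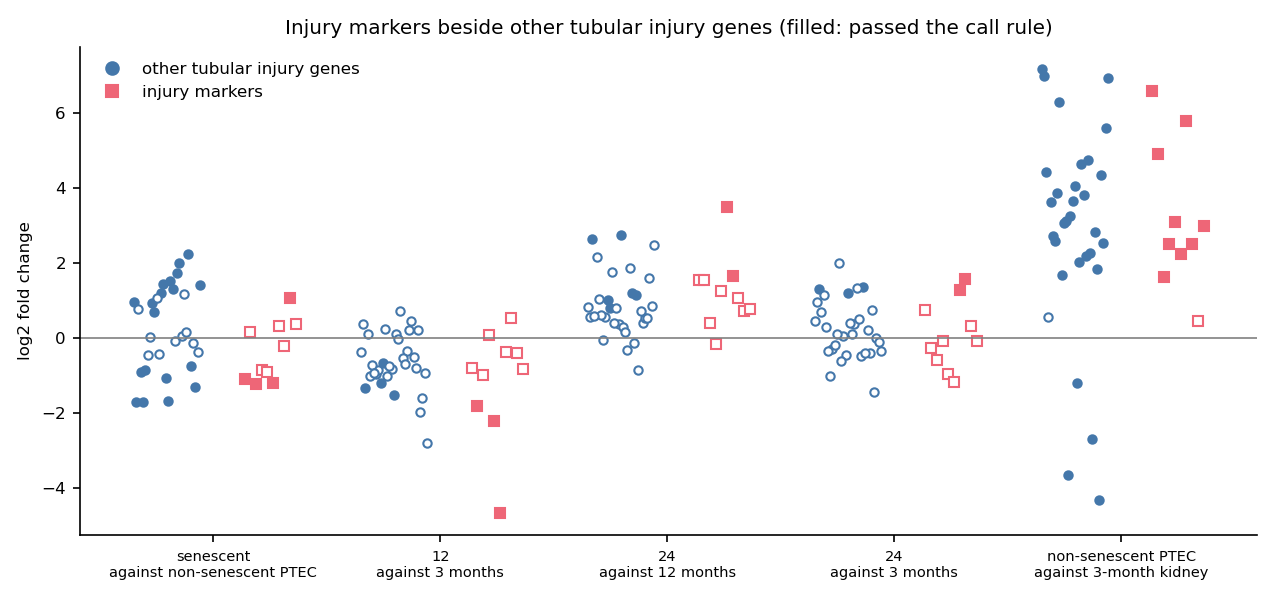
Log2 fold changes of the 10 injury markers (squares) beside the other tubular injury genes (circles) in 5 comparisons, where filled symbols passed the call rule. From 3 to 12 months most symbols lie below 0, from 12 to 24 months most lie above 0, and in ns PTEC against 3-month-old kidneys 26 circles and 9 squares are filled above 0.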

How the data were processed

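The authors state a directional kit, paired-end reads and processing with nf-core/rnaseq 1.4.2 on GRCm38 with GENCODE release M18. They state these for a pool of fewer than the 17 libraries, without naming which. The authors deposited raw counts per gene, without normalization. Aligner, counter and strand setting are not given in the sources used here. Symbols and positions came from release M21. Counts were tested in R 4.3.3 with edgeR 4.0.16 (TMM scaling, filterByExpr, robust quasi-likelihood test, Benjamini-Hochberg adjustment over all genes tested), in PTEC, in kidneys and over all libraries. DESeq2 1.42.0 was an alternative. Correlations were computed on log2 CPM with a prior count of 2, and keratin ratios from the deposited counts and tested as log2 ratios, with pairing by replicate number added after the data were seen (Python 3.11.15, with scipy 1.17.1, numpy 2.4.6, pandas 2.3.3 and matplotlib 3.10.9). The method was also run on simulated counts, and the outcome is not given here. These counts were drawn independently for each library, with no shared replicate deviation or difference in gene set.

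All single-gene adjusted p-values are from edgeR unless DESeq2 is named. Shares of called genes in percent are for edgeR. DESeq2 was run on all genes with reads. It called 531 of 30029 genes higher and 576 lower at 12 against 3 months. At 24 against 3 months it called 727 higher and 308 lower, and at 24 against 12 months 493 and 286. In PTEC it called 3506 of 30570 genes higher and 3286 lower. By edgeR, 2820, 3106 and 2602 of 17067 genes had an unadjusted p under 0.05 in either direction in these comparisons of ages. In PTEC, 7957 of 15434 had. CPM are counts divided by the scaled library size in the usual per-megaread unit, within PTEC or within kidneys unless the joint scale is named. The 10 members and 15 further gene lists were chosen with earlier results of these data known. Named genes are the members, the 2 largest and 2 smallest called changes of each list with a mean of at least 1 CPM, the 3 genes most like each member, and markers near 0. Names outside this rule (Lrp2, Fgb, Tagln, Pdgfra and Dcn in PTEC, Itga4, Itga5, Itga9, Itgb1, Itgb7, Col1a1, Kap and Upk3a in kidneys) were chosen after their values were seen.

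Deviations from group means correlated between same-numbered PTEC cultures with r of 0.284, 0.382, 0.614 and 0.186, and the numbers were taken to pair them. Libraries with different numbers were not compared in this way. Between 12- and 24-month-old kidneys r was 0.384, 0.557 and 0.172, and between 3-month-old and older kidneys from -0.701 to -0.0336. Alternatives were other scalings, no filter, thresholds of 0 and 1, DESeq2, a replicate block, compared groups alone and each library left out.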

Additional observations from a re-analysis of the deposited data

How the results depend on the processing

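Over the 10 markers, 644 alternative values kept direction and side of the threshold, 53 lost it, 23 gained it and 10 changed sign. The number called higher in sen PTEC was 1 and lay between 1 and 2 with cultures left out, and the number called lower was 3, between 1 and 5 with cultures left out, 1 with no filter and 5 with the replicate block. At 24 against 3 months, 2 were higher, 0 to 1 with kidneys left out, 1 with DESeq2 size factors, upper quartile scaling, no filter or the 2 ages alone, and 0 with the replicate block, and 0 to 1 were lower with kidneys left out. At 12 against 3 months, 3 were lower, 1 to 5 with kidneys left out, 5 with DESeq2 and 1 with the 2 ages alone. At 24 against 12 months, 2 were higher, 0 with any kidney left out or the replicate block, 4 with no filter or DESeq2, and 8 with these ages alone and the replicate block. Pairs of markers past 0.05 lay between 4 and 10. The cause was not tested.

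Signs that changed belonged to values near 0, with 1 library left out. Log2 fold changes then lay between -0.36 and 0.40 for Lcn2 in PTEC (-0.08 without ns replicate 1). At 24 against 3 months they lay between -0.59 and 0.064 for Lcn2, between -0.20 and 0.024 for Krt8 and between -0.32 and 0.16 for Spp1 (0.03 without 24-month replicate 1), and at 12 against 3 months between -0.043 and 0.28 for Krt8. Sox9 in kidneys rests on 25 to 122 reads per library, and 3 mice per age limit every comparison of ages.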
